A study of Mus musculus with 18 samples.

Results

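Cycling keratinocytes are the epidermal and follicular cells that were copying their DNA or dividing when the skin was taken apart. A cell was counted as one when the keratins Krt5 and Krt14 together held at least 0.3% of its UMIs (unique molecular identifiers, 1 per captured RNA molecule), the leukocyte gene Ptprc had 0 UMIs, and the cycle genes Mki67, Top2a, Cdk1 and Birc5 together had at least 3 UMIs. This rule kept 638 cells. They were 14.2% of the 4489 cells that met the keratin and Ptprc conditions (gated keratinocytes) and 1.35% of the 47251 cells that passed the quality limits (200 or more genes, 500 or more UMIs, mitochondrial share no higher than 10%). A further 3157 gated keratinocytes had 0 UMIs of the 4 cycle genes and are called resting here. The members were chosen by their UMI counts of Krt5, Krt14, Ptprc and the 4 cycle genes, so the levels of these genes in the chosen cells are given as a description.

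The cells came from mouse back skin in a study of skin stretched by an implanted expander. All mice had the same operation, an incision near the tail and a path made under the skin toward the neck. In the expanded group a hydrogel expander was placed under the skin near the neck, and the control group received none. Skin was taken at days 1, 2 and 4, live cells were sorted, and RNA was counted with the 10x Genomics 3' assay in 10 libraries. Day 1 and day 2 each had sequencing rounds 1 and 2 with 1 control and 1 expanded library, and day 4 had 1 library of each group. The mice of a group and round were pooled in 1 tube, so a library is a pool of mice and p-values here measure the spread between pools. Strain, age, sex and the number of mice are not given in the labels used here, and 8 hashing-antibody libraries of the same pools were not used here. Control cells are operated skin, not unwounded skin.

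The epidermis is renewed by basal keratinocytes, which make Krt5 and Krt14, hold on to the basement membrane through integrins and hemidesmosomes, and divide. Daughter cells that leave the basal layer stop dividing and switch to Krt1 and Krt10. Within the cycle, genes of S phase make and load the DNA replication machinery, and genes of G2 and M phase build the spindle, separate the chromosomes and then mark cyclins for destruction. Tissue expanders are used in reconstructive surgery to grow extra skin over the implant.

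Many G2 and M phase genes are held silent in resting cells through a promoter element called the CHR (TTTGAA or TTCGAA), often beside CCAAT boxes, while many S phase genes carry E2F sites. The promoters of the 4 cycle genes are shown because these genes chose the cells. The windows are the 150 bases before the RefSeq start in GRCm38.p6, at chr7:135716380-135716529 (Mki67, minus strand), chr11:99024190-99024339 (Top2a, minus strand), chr10:69352913-69353062 (Cdk1, minus strand) and chr11:117849087-117849236 (Birc5, plus strand). They are written 5′ to 3′ on the gene's strand, and capitals mark CCAAT (or ATTGG on the other strand) and TTTGAA (or TTCAAA) or TTCGAA.
Mki67: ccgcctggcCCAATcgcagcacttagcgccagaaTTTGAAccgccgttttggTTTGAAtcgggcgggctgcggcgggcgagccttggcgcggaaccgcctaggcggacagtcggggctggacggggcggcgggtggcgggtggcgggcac
Top2a: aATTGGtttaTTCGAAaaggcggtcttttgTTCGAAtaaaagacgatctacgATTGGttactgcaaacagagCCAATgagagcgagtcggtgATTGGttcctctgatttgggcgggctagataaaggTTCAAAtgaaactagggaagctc
Cdk1: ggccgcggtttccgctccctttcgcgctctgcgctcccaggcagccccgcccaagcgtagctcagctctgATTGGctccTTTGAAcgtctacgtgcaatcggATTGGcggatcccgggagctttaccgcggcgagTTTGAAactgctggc
Birc5: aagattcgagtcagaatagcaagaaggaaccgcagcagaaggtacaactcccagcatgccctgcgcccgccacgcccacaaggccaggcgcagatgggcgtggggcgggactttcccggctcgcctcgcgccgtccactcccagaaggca

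The Top2a window held 4 CCAAT matches, 2 TTCGAA matches and 1 TTTGAA match, whereas the Birc5 window held none of these letters. The Cdk1 window held 2 CCAAT and 2 TTTGAA matches, and the Mki67 window held 1 and 2. No CCAAT match overlapped a TTTGAA or TTCGAA match in these windows. Over the 250 bases before each start, TTTGAA or TTCGAA on either strand was present at 41.7% of the 48 starts of the G2M genes that matched, at 17.6% of the 34 starts of the S phase genes and at 17.1% of all 32851 starts in the table. CCAAT was present at 75.0%, 67.6% and 33.8% of the same sets. The E2F letters TTTGGCGC or TTTCCCGC were present at 4.17%, 23.5% and 1.30%. The lists matched 43 of the 50 G2M genes and 31 of the 43 S phase genes, and a match describes letters, not binding.

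The chosen cells carried genes of proliferating keratinocytes beyond those in the rule. Hmmr, a spindle-associated protein, stood at a mean of 81.7 CPM (UMIs per 1000000 UMIs, summed over the cycling keratinocytes of a library) against 0.378 CPM in resting keratinocytes. Hist1h1b, a linker histone made during DNA replication, stood at 399.9 against 5.90 CPM, and Ube2c, the enzyme that tags mitotic cyclins for degradation, at 153 against 2.10 CPM. Next in order by the median log2 ratio over libraries were Nusap1 (5.42), Cdca3 (5.14) and Cenpf (5.06). At the other end, the keratin Krt24 had a median log2 ratio of -3.75, the cysteine protease inhibitor Cst6 had -3.31, and the differentiation keratins Krt1 and Krt10 had -2.83 and -2.32. These ratios follow from the rule and were not tested.

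Krt5 was detected in 98.2% to 100% of the members of each library and Krt14 in 98.8% to 100%, which the rule fixes. Basal genes outside the rule were present in every library: Krt15 ranged from 1872 to 4828 CPM, Trp63 (the transcription factor of stratified epithelium) from 128 to 216 CPM, and Col17a1 (a hemidesmosome collagen) from 194 to 819 CPM. The members also carried follicle genes. Krt17 ranged from 1589 to 3112 CPM, Sox9, a transcription factor of follicle progenitors, from 208 to 862 CPM, and Krt79, a keratin of the upper follicle, from 40.7 to 635 CPM. Epidermal and follicular members were not separated.

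Few members carried the differentiation keratins. Krt1 and Krt10 together reached 0.3% of UMIs in 7 of the 638 members and in 64 of the 3157 resting cells. Of those 7, 6 were in the expanded day 1 round 2 library, where they were 5.26% of members, and 1 was in the expanded day 4 library (0.787%). The difference between the group means was 1.21 percentage points with an exact permutation p of 0.444 (two-sided, 4 control and 5 expanded libraries), so it was not larger than the spread between libraries. Without the expanded library of day 1 round 2 it was 0.197.

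The number of members per library ran from 8 to 127. The control libraries held 44 and 55 members at day 1 (rounds 1 and 2), 8 and 66 at day 2 and 67 at day 4. The expanded libraries held 81 and 114, 51 and 25, and 127 in the same order. The control library of day 2 round 1, with 8 members, stayed out of the tests on levels, which therefore compared 4 control with 5 expanded libraries. No barcode was shared between members of different libraries, and 8 members had a barcode that also appeared in a kept cell of another library. The libraries held 17726739 to 75470722 gene UMIs, and 8.60% to 24.4% of barcodes had too many mitochondrial UMIs.

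Members were deep cells. Their median UMI count was 1.72 to 2.65 times that of the resting cells of the same library. It was higher in the expanded libraries (21129.5 to 34056) than in the control libraries (12794 to 20366), with no overlap. A fixed minimum of 3 UMIs is easier to reach in a deeper cell, and depth moved with the groups. Calls that were lost when members were chosen after thinning to 5000 UMIs (at equal depth) are therefore named beside the results.

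The cycle genes themselves were seen in different shares of members. Per library, Mki67, a coat protein of mitotic chromosomes, was detected in 49.4% to 92.2% of members, Top2a, which untangles DNA, in 64.0% to 93.8%, Cdk1, the mitotic kinase, in 46.9% to 65.7%, and Birc5, a subunit of the chromosomal passenger complex, in 37.5% to 82.4%. Mki67 was seen in 49.4% and 60.5% of the expanded day 1 members and in 81.8% and 89.1% of the control day 1 members. The 4 genes had a median of 9.0 UMIs per member and reached 265 in 1 cell. The 121 cells with exactly 3 UMIs had 1525 CPM of S phase genes and 1895 CPM of G2M genes, and the 195 excluded cells with 2 UMIs had 1268 and 1770.1 CPM. The 300 members with 10 or more UMIs had 2814 and 6735 CPM, and the resting cells had 947 and 1554 CPM. At the keratin limit, 38 members lay between 0.3% and 0.4% (27 control, 11 expanded) and 41 otherwise qualifying cells lay just outside, between 0.2% and 0.3% (29 control, 12 expanded).

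The first comparison asked whether a larger share of keratinocytes was cycling under an expander. Every gated cell was thinned to 5000 UMIs before the rule was applied, and shallower cells were left out. At day 1 the share was lower in expanded than in control skin in both rounds. In round 1 it was 7.60% in control (26 of 342 cells, 95% exact interval 5.03% to 10.9%) and 3.10% in expanded skin (21 of 678, 1.93% to 4.70%). In round 2 it was 8.49% in control (41 of 483, 6.16% to 11.3%) and 3.45% in expanded skin (44 of 1275, 2.52% to 4.61%). The intervals of the control and expanded libraries did not overlap in either round of day 1 at this depth. Without thinning, control and expanded skin of day 1 gave 12.1% against 11.6% (round 1) and 9.91% against 8.54% (round 2), with overlapping intervals. The intervals of round 1 also overlapped at 2000 UMIs per cell and with a minimum of 5 cycle UMIs, and those of round 2 with the keratin minimum at 1%.

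At day 2 the order was the opposite with the 3 UMI minimum. In round 1 the share was 12.5% in control (6 of 48 cells, 4.73% to 25.2%) and 17.1% in expanded skin (27 of 158, 11.6% to 23.9%). In round 2 it was 8.86% in control (31 of 350, 6.1% to 12.3%) and 9.84% in expanded skin (12 of 122, 5.19% to 16.6%). At day 4 it was 13.8% in control (45 of 327, 10.2% to 18%) and 12.9% in expanded skin (55 of 428, 9.83% to 16.4%). The intervals overlapped at both later days. With a minimum of 5 cycle UMIs expanded skin of day 2 lay below control in both rounds (8.23% against 10.4%, then 7 of 122 cells against 21 of 350), so the order at day 2 depended on the minimum. All these intervals are Clopper-Pearson intervals and cover counting error only, not the spread between mice.

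**Figure D1:**
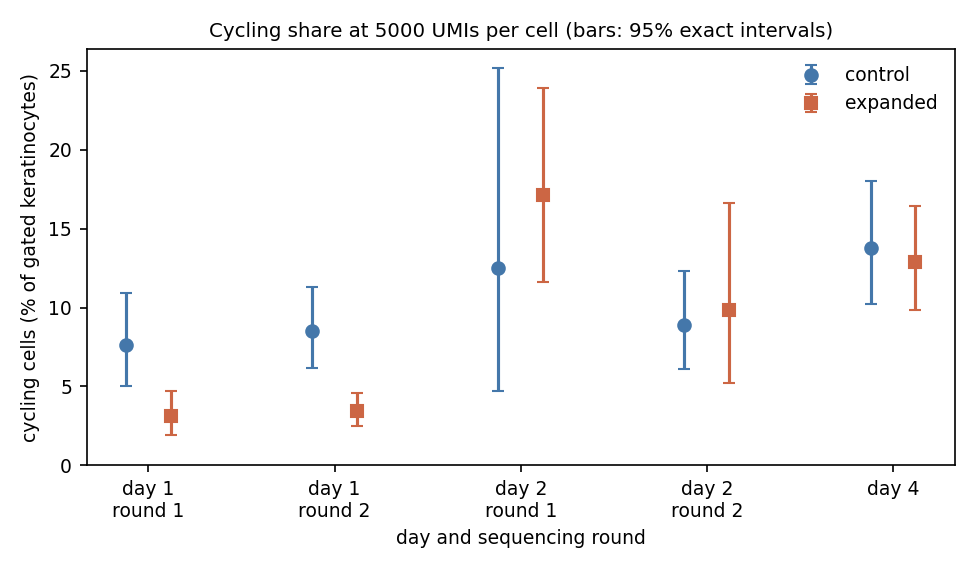
Share of gated keratinocytes that met the cycling rule after every cell was thinned to 5000 UMIs, in percent, for the 5 control (circles) and 5 expanded (squares) libraries by day and sequencing round, with 95% exact binomial intervals. The expanded libraries lie below their controls in both rounds of day 1 (3.10% against 7.60%, 3.45% against 8.49%), and the intervals overlap at days 2 and 4.

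Over all days the control mean was 10.2% ± 2.71 (SD, n = 5) and the expanded mean 9.26% ± 6.05 (SD, n = 5), a difference of -0.977 percentage points with an exact permutation p of 0.762 (two-sided). The expanded share was higher in 2 of 5 pairs. The sign of this mean difference was not stable: without thinning the shares were 14.5% and 19.6% (a difference of 5.06, exact permutation p = 0.333), and without the expanded library of day 1 round 1 or of day 1 round 2 the difference was 0.565 or 0.476. Against all kept cells of a library the cycling share was 0.667% in control and 1.25% in expanded skin, higher in 5 of 5 pairs (exact permutation p = 0.0238), a share that also moves with how many keratinocytes each library holds. In endothelial marker cells of the same libraries, thinned alike, 0% to 4.11% passed the cycle minimum, with median depths of 7413 to 13409.5 UMIs before thinning. The highest, 12 of 292 cells, was in the expanded day 4 library, and 0 of 54 cells in the control day 2 round 1 library allows up to 5.56% by a limit of 3 counts and 6.60% by the exact interval.

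The second question was where in the cycle the members stood. The S phase list holds 43 genes and the G2M list 50 genes, none of them in the rule. Summed over the G2M list, control members had 6506, 6726, 5087 and 6742 CPM (day 1 rounds 1 and 2, day 2 round 2 and day 4), and expanded members had 3589.9, 3895, 4491, 4468 and 4852 CPM (day 1 rounds 1 and 2, day 2 rounds 1 and 2 and day 4). Every control library lay above every expanded library. The means were 6265 ± 793 (SD, n = 4) and 4259 ± 507 (SD, n = 5), so the list fell by 2006 CPM, with an exact permutation p of 0.00794 (two-sided), the smallest that 126 arrangements allow. The list was lower in 4 of 4 pairs, and an exact permutation test that flips signs within those pairs gave a p of 0.125, the smallest it can give.

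The S phase list was not separated between groups. Control members had 1936, 2197, 2731 and 2425 CPM and expanded members 2315, 2958, 2398, 2746 and 2116 CPM, so the groups overlapped. The means were 2322 ± 338 (SD, n = 4) and 2507 ± 340.2 (SD, n = 5), an exact permutation p of 0.437. When the keratin minimum was raised to 1% of UMIs the S phase list was 825 CPM higher in expanded members (exact permutation p = 0.0397).

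Because G2M genes and the rule's genes are made in the same cells, the G2M fall was measured again with members chosen at equal depth. It was also measured with members thinned after they were chosen. When members were chosen after thinning to 5000 UMIs, the G2M list stood at 8794 ± 562 CPM in control and 6743 ± 796 CPM in expanded members and fell by 2052 CPM (exact permutation p = 0.0159). When the members of the rule were thinned to 5000 UMIs each, the list fell by 1815 CPM (exact permutation p = 0.0317) and was lower in 3 of 4 pairs. These members had been chosen at full depth, so this second value leaves the effect of depth on the choice in place. Leaving out any 1 library gave differences between -2399 and -1839 CPM.

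**Figure D2:**
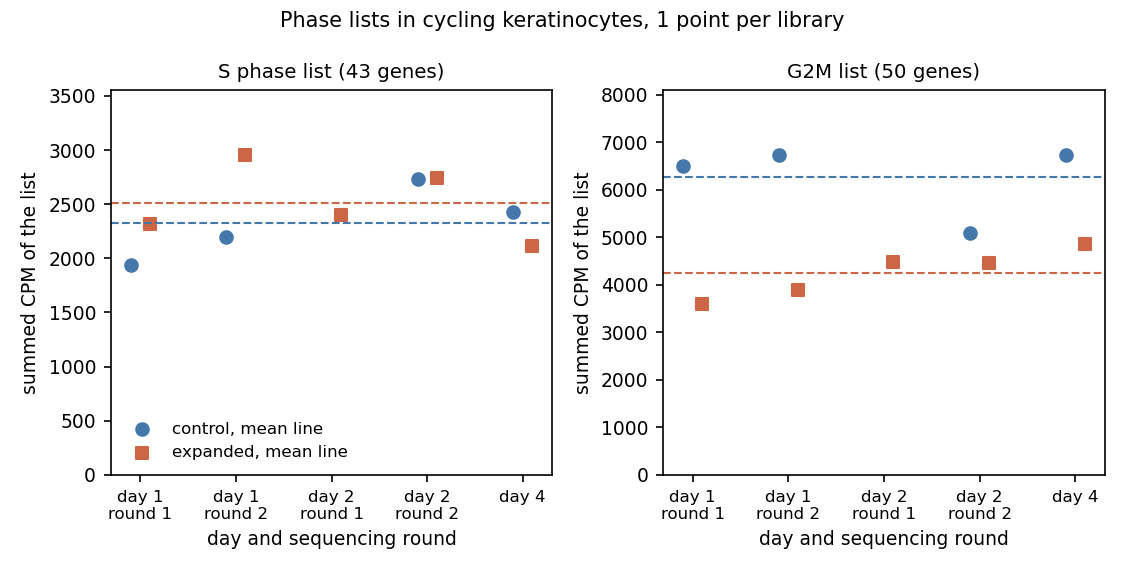
Summed CPM of the S phase list (left) and the G2M list (right) in cycling keratinocytes, 1 point per library, 4 control (circles) and 5 expanded (squares), with dashed lines at the group means. The G2M points of the groups do not overlap (5087 to 6742 against 3589.9 to 4852 CPM), while the S phase points do.

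Single members were then split by phase. Of the 623 members with at least 5000 UMIs, thinned to that depth, 68.7% had more G2M than S phase UMIs, 28.4% had more S phase UMIs, and 18 cells had equal numbers. Members with more S phase UMIs were 18.2%, 17%, 0%, 30.6% and 20% of the control libraries (day 1 rounds 1 and 2, day 2 rounds 1 and 2, day 4) and 35.8%, 46.8%, 20%, 33.3% and 23.2% of the expanded libraries. The expanded share was higher in each pair, and it was highest in the expanded day 1 libraries. These members were chosen before thinning, and the share among members chosen at equal depth was not computed. The value of 0% rests on the 8 members of the control day 2 round 1 library. Across the 623 members the counts of the S phase and G2M lists had a Pearson r of 0.0419, given as a description.

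**Figure D3:**
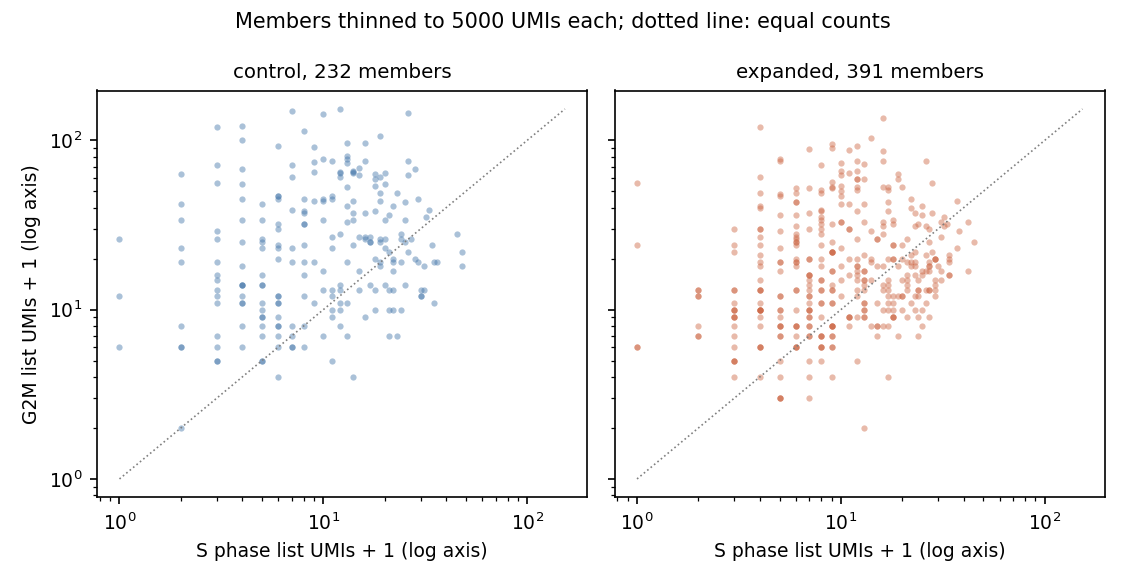
Each point is 1 member thinned to 5000 UMIs, with S phase list UMIs plus 1 on the x axis and G2M list UMIs plus 1 on the y axis (both log axes), in control (left) and expanded (right) skin. Points under the dotted line of equal counts are members with more S phase UMIs, 21.1% in control and 32.7% in expanded skin.

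The third comparison tested every gene in the members, expanded against control, with edgeR's quasi-likelihood test on UMIs summed per library and day as a covariate. Of 8878 genes tested, 315 passed an adjusted p of 0.05, which is 3.55% of genes; 141 rose (1.59%) and 174 fell (1.96%). The median log2 difference (expanded minus control) over all genes was 0.01, with 4528 genes above 0 and 4350 below. Of the 315 genes, 305 moved the same way in all 4 pairs with both libraries. These genes were chosen by a test on the same libraries, so this agreement is a description and no separate support. Control and expanded libraries did not overlap for 7.64% of all tested genes. An unadjusted edgeR p below 0.05 was reached by 1979 of the 8878 genes, the background for the unadjusted counts given with the lists.

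That count rests on few libraries. It was 74 without the control library of day 1 round 1, 28 without that of day 1 round 2, 31 without that of day 4 and 688 without that of day 2 round 2. It was 82 without the expanded library of day 1 round 2, 144 without that of day 2 round 2 and 34 without that of day 4. With members chosen after thinning to 5000 UMIs it was 123. The genes Cirbp, Rbm3, Cstdc5, H2afv, Serpinh1, Snhg3 and Ube2c passed in the main test and under all 20 alternatives, left-out libraries included. For each other re-tested gene that passed in the main test, at least 1 left-out library or other setting moved its adjusted p to 0.05 or above. Of 61 genes re-tested, 46 lost their call without the control library of day 1 round 2, 45 without that of day 4, 36 without that of day 1 round 1, and 44 without the expanded library of day 4.

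Genes of G2 phase and chromosome segregation were among the falls. In the G2M list 12 of 49 tested genes fell, against 1.96% of all genes, and 0 rose. The median log2 difference was -0.65, with 48 genes below 0. In the list of spindle and checkpoint genes, which overlaps it, 8 of 33 fell, against 1.96% of all genes, and 0 rose. The median was -0.70, with all 33 below 0. Ube2c had 220.2, 230.5, 193 and 302 CPM in control members and 78.4, 78.1, 57.4, 49.9 and 169 CPM in expanded members. The groups did not overlap, and Ube2c fell by 1.46 on the log2 scale (SE 0.16, adjusted p = 0.00181). Cenpf, a kinetochore protein, had 152, 272, 157 and 268 CPM in control and 78.4, 103, 78.5, 49.9 and 105 CPM in expanded members, again without overlap (fell by 1.28, SE 0.19, adjusted p = 0.00853).

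Prc1, which bundles the microtubules of the central spindle, had 170.3, 244, 140.1 and 191 CPM in control and 77.2, 93.5, 85.1, 69.9 and 95.7 CPM in expanded members. It fell by 1.10 (SE 0.16, adjusted p = 0.00761) with no overlap. Hmmr fell by 1.18 (adjusted p = 0.0317), the motor Cenpe by 1.08 (0.0410), the microtubule binder Nusap1 by 1.05 (0.0183), the cytokinesis scaffold Anln by 1.02 (0.0355), and Tpx2, which activates Aurora A on the spindle, by 0.85 (0.0317). The Aurora kinases themselves did not pass, with -0.66 for Aurka (adjusted p = 0.224) and -0.54 for Aurkb (0.170), nor did the kinase Plk1 (-0.66, 0.123) or the checkpoint kinase Bub1 (-0.65, 0.180).

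Part of these calls depended on how members were chosen. With members chosen at equal depth, Ube2c (-1.15, adjusted p = 0.0361) and Hmmr (-0.77, 0.0341) still passed. Cenpf (-0.97, adjusted p = 0.0506), Prc1 (-0.69, 0.0746), Tpx2 (-0.60, 0.0712), Anln (-0.66, 0.0728), Cenpe (-0.59, 0.150), Nusap1 (-0.48, 0.325) and Cdca8 (-0.36, 0.239) kept their direction and did not pass. The 4 genes of the rule, whose minimum chose the cells, are given without a test. Mean Mki67 was 341 CPM in control and 201 CPM in expanded members, mean Top2a 399 and 265 CPM, mean Cdk1 114 and 86.3 CPM, and mean Birc5 139 and 104 CPM.

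No replication gene of the lists passed. Of the 43 S phase genes 0 rose and 0 fell, with a median of 0.08, and of 27 genes of origin licensing and the replication fork 0 rose and 0 fell, with a median of 0.09. At an unadjusted p below 0.05 the first list had 2 genes, Atad2 at -0.72 (adjusted p = 0.0649) and Ung, a uracil repair enzyme, at 0.78 (0.171), and the second had 0. Pcna, the sliding clamp of DNA polymerase, had 172, 177, 179.7 and 165 CPM in control and 209, 259, 183, 182 and 131 CPM in expanded members, with overlap. Rrm2, which makes deoxynucleotides, was at 93.5 ± 27.9 CPM (SD, n = 4) in control and 120.2 ± 13.4 CPM (SD, n = 5) in expanded members (adjusted p = 0.271). Of 19 replication-dependent histone genes 0 passed (2 at an unadjusted p below 0.05), with a median of -0.16, although reads of near-identical histone genes may be split between copies.

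Among 15 cyclins and cyclin-dependent kinases only Ccna2, cyclin A2 of S and G2 phase, passed, against 3.55% of all genes. It had 74.8, 75.4, 64.3 and 79.3 CPM in control and 32.5, 41.3, 55.4, 53.7 and 53.1 CPM in expanded members and fell by 0.70 (SE 0.17, adjusted p = 0.0470), but it did not pass with members chosen at equal depth (-0.31, adjusted p = 0.320) or with the block (0.0539). The mitotic cyclin Ccnb1 differed by -0.72 (adjusted p = 0.116). The G1 cyclins lay on the other side of 0 without passing: Ccnd1 at 0.52 (adjusted p = 0.180) and Ccne1 at 1.00 (0.111), both higher in 4 of 4 pairs.

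Inhibitors of the cycle gave 1 call of 16 tested, against 3.55% of all genes. Of 16 tested CDK inhibitors and p53 targets 14 were below 0, the median was -0.49, and 1 passed. Cdkn1b, which codes for the inhibitor p27, had 72.7, 71.2, 62.6 and 109.7 CPM in control and 51.5, 51.4, 47.5, 44.9 and 65.1 CPM in expanded members (fell by 0.56, SE 0.14, adjusted p = 0.0451), with overlap. With a block for each pair of libraries of 1 day and round its adjusted p was 0.0600, and at equal depth it was 0.0590. Cdkn1a, the p21 gene induced by p53, stood at 407 ± 80.5 CPM (SD, n = 4) in control and 246 ± 54.8 CPM (SD, n = 5) in expanded members, without overlap (-0.67, adjusted p = 0.0550, and 0.0226 with the block).

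H2afv, a histone H2A.Z variant outside these lists, had 318, 430.2, 321 and 457 CPM in control and 190.1, 159.8, 177, 156 and 214 CPM in expanded members. It fell by 1.06 (SE 0.14, adjusted p = 0.00508) with no overlap. Haus8, a subunit of the augmin complex that seeds microtubules in the spindle, fell by 1.07 (adjusted p = 0.0220) from 41.7 ± 2.94 (SD, n = 4) to 20.9 ± 5.30 CPM (SD, n = 5).

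**Figure D4:**
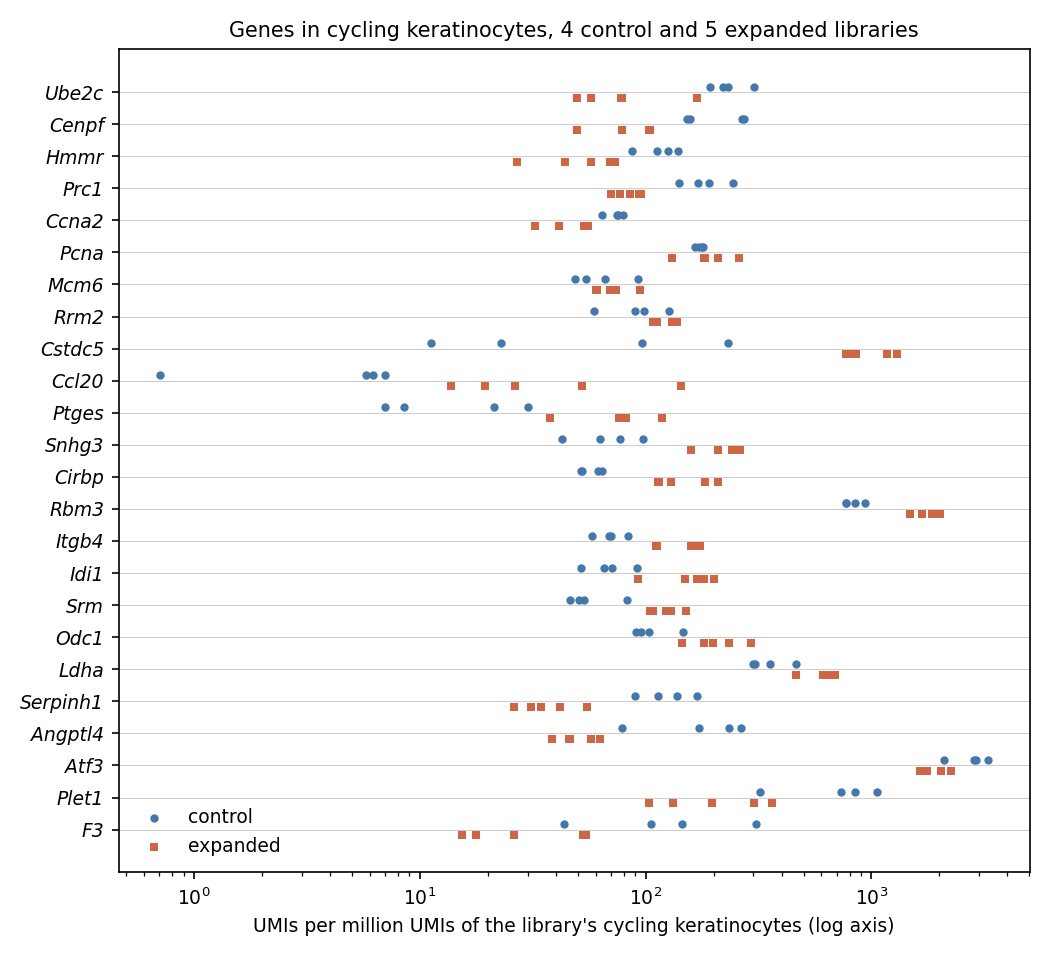
CPM of 24 genes in cycling keratinocytes on a log axis, 1 point per library, 4 control (circles) and 5 expanded (squares). Mitotic genes such as Ube2c lie to the left in expanded libraries, Pcna and Mcm6 overlap, and Cstdc5, Snhg3, Cirbp and Rbm3 lie to the right.

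Genes that hold basal cells to the basement membrane gave 1 rise of 14 tested, against 1.59% of all genes. Itgb4, the integrin subunit of hemidesmosomes, had 68.5, 83.8, 70.1 and 58.0 CPM in control and 158, 174, 112, 161 and 111 CPM in expanded members. It rose by 1.01 (SE 0.15, adjusted p = 0.00943) with no overlap. Its partner Itga6 did not pass (0.13, adjusted p = 0.683), nor did Col17a1 (0.46, 0.0766), and the 14 tested genes of the list had a median of 0.16 with 0 falls. Krt5, which the rule used, averaged 3229.5 CPM in control and 4896 CPM in expanded members. Of 10 basal markers 2 rose, Itgb4 and Ifitm3, against 1.59% of all genes. Ifitm3, a membrane protein of the interferon response, went from 821 ± 424 to 1645 ± 224 CPM (rose by 1.00, adjusted p = 0.0269).

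Differentiation and wound keratins did not pass. Of 11 spinous genes 0 passed (4 at an unadjusted p below 0.05), with a median of 0.43. Krt1 had 473 CPM in the expanded day 1 round 2 library and 66.4 CPM or less in the other expanded libraries (adjusted p = 0.118). Krt6a, a keratin induced at wound edges, stood at 332 ± 260.1 CPM (SD, n = 4) in control and 654 ± 249 CPM (SD, n = 5) in expanded members (0.96, adjusted p = 0.105). Of 5 tested wound keratins and partners 0 passed, 2 of them being under 0.05 before adjustment.

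Of 10 upper follicle genes 1 fell, against 1.96% of all genes. Plet1, a surface protein of the follicle junction, had 1055, 846, 322 and 729.8 CPM in control and 197, 132, 303, 104 and 362 CPM in expanded members (fell by 1.64, SE 0.37, adjusted p = 0.0391), with overlap, and it did not pass with members chosen at equal depth (-0.97, adjusted p = 0.365). Of 14 bulge and hair germ genes 0 passed, with a median of -0.37. At an unadjusted p below 0.05 there were 5, against 1979 of all 8878 genes. Among them Lgr5, a stem cell receptor, was at -0.51 (adjusted p = 0.407) and Cd34 at -0.91 (0.108).

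Genes of growth and lipid synthesis gave a few rises. In the list of ribosome biogenesis genes and MYC targets 25 of 26 genes were above 0, with a median of 0.44. In it 11 genes did not overlap between groups (against 7.64% of all genes), and 2 rose (against 1.59% of all genes). Srm, which makes spermidine, had 50.9, 46.1, 82.4 and 53.1 CPM in control and 123, 151, 108, 129 and 105 CPM in expanded members (rose by 1.03, SE 0.18, adjusted p = 0.0183). Odc1, the first enzyme of polyamine synthesis, had 95.5, 90.8, 147 and 103 CPM in control and 182, 199, 293, 233 and 145 CPM in expanded members (rose by 0.82, SE 0.14, adjusted p = 0.0177). Srm did not overlap between groups and Odc1 did. At equal depth Srm passed (1.13, adjusted p = 0.0259) and Odc1 did not (0.74, 0.0823). The nucleolar proteins Ncl (0.49, adjusted p = 0.0575) and Fbl (0.54, 0.0780) did not pass although their groups did not overlap, and Myc itself was at -0.22 (0.532).

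Of 19 cholesterol synthesis genes 5 rose, against 1.59% of all genes, and 0 fell, with a median of 0.54. Idi1, an isomerase of the isoprenoid steps, had 51.9, 65.7, 70.9 and 91.3 CPM in control and 92.3, 169, 149.7, 181 and 200.3 CPM in expanded members (rose by 1.15, SE 0.19, adjusted p = 0.0121) with no overlap. Mvk, mevalonate kinase, rose by 1.37 (adjusted p = 0.0179), Hmgcs1 by 0.73 (0.0392), Fdps by 0.97 (0.0481) and Mvd by 1.47 (0.0392, and 0.0550 with the block), the last from a mean of 4.71 to 12.5 CPM. Sqle, squalene epoxidase, did not pass (0.38, adjusted p = 0.363). With members chosen at equal depth, Idi1 passed (1.29, 0.0191), and Mvk (1.06, 0.106), Hmgcs1 (0.60, 0.159) and Fdps (0.96, 0.0999) did not. Mvd was not among the genes tested with that choice.

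Of 20 glycolysis genes 2 rose, against 1.59% of all genes. Ldha, lactate dehydrogenase, had 305, 300.3, 462 and 355 CPM in control and 464, 651, 610, 691 and 629.7 CPM in expanded members (rose by 0.73, SE 0.14, adjusted p = 0.0216), just without overlap. Eno1, enolase, rose by 0.72 (adjusted p = 0.0266), a value that is uncertain because a near-identical gene copy can take part of its reads. At equal depth Ldha passed (0.72, adjusted p = 0.0341) and Eno1 did not (0.63, 0.134). Fasn, the fatty acid synthase listed with sebaceous genes, went from 21.8 ± 6.41 (SD, n = 4) to 40.1 ± 3.58 CPM (SD, n = 5) and rose by 0.90 (adjusted p = 0.0404, 0.0614 with the block and 0.0710 at equal depth).

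Both cold-inducible RNA-binding proteins rose. Rbm3 had 932, 775, 775 and 848 CPM in control and 1482, 1957, 1859.8, 1669 and 2016 CPM in expanded members (rose by 1.10, SE 0.12, adjusted p = 0.00181). Cirbp had 61.3, 64.3, 51.9 and 52.4 CPM in control and 209, 183, 129, 115 and 114 CPM in expanded members (rose by 1.38, SE 0.15, adjusted p = 0.00181). Neither gene overlapped between groups. Resting keratinocytes moved alike, with 1.23 for Rbm3 (adjusted p = 0.00139) and 1.36 for Cirbp (0.00206).

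Snhg3, a host gene of small nucleolar RNAs, had 76.9, 62.9, 97.3 and 42.5 CPM in control and 209.9, 242, 255, 262 and 159 CPM in expanded members. It rose by 1.63 (SE 0.14, adjusted p = 0.000670) with no overlap. Ptges, which makes prostaglandin E2, had 30.1, 6.98, 21.4 and 8.49 CPM in control and 82.0, 118, 79.1, 76.1 and 37.9 CPM in expanded members. It rose by 2.13 (SE 0.28, adjusted p = 0.00508) with no overlap. Smaller rises without overlap were those of Ass1, argininosuccinate synthase (1.35, adjusted p = 0.0187), Chchd10, a mitochondrial protein (1.34, 0.0220), the galectin Lgals9 (1.33, 0.0220), Phyh, a peroxisomal hydroxylase (1.31, 0.0324), and Ssbp4 (1.31, 0.0220). At equal depth Ass1 (adjusted p = 0.0114) and Chchd10 (0.0126) still passed, and Lgals9 (0.0879), Phyh (0.0570) and Ssbp4 (0.0678) did not.

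Stress and host defense genes contained some of the largest differences. In the alarmin and acute phase list 3 of 14 tested genes rose, against 1.59% of all genes, and 0 fell. The median was 1.60, with 8 genes above 0 and 6 below. Genes that passed the filter on low counts through the expanded libraries can raise this count and median. Both are therefore given as a description. Cstdc5, a stefin-type cysteine protease inhibitor outside this list, had 22.8, 11.2, 232 and 96.3 CPM in control and 773, 821, 858, 1172 and 1293 CPM in expanded members. Every expanded library lay above every control library, and Cstdc5 rose by 3.68 (SE 0.47, adjusted p = 0.00508). Its relative Stfa3 had 21.8, 23.7, 81.6 and 41.8 CPM in control and 41.6, 108, 178, 273 and 453 CPM in expanded members (rose by 2.05, SE 0.36, adjusted p = 0.0183), with overlap. Ccl20, a chemokine that attracts CCR6 cells, had 6.23, 6.98, 5.77 and 0.708 CPM in control and 143, 19.4, 52.1, 13.7 and 26.3 CPM in expanded members. The control values of Ccl20 rest on few UMIs (6 and 5 in the day 1 libraries), and it passed the filter on low counts through the expanded libraries. Its pass in the edgeR test (adjusted p = 0.0297) is therefore given as a description, and no fold is given. In day 1 round 1 its 361 UMIs lay in 6 of 81 expanded members, and 3 of 44 control members held 6 UMIs. Ccl20 was not among the genes tested with members chosen at equal depth. Cstdc5 and Stfa3 lie in a cluster of closely similar stefin genes, so which member the reads came from is uncertain.

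The levels of Cstdc5, Stfa3 and Ccl20 in other cells of the same libraries are given as a description. In endothelial marker cells of the expanded libraries Cstdc5 was at 1.42 to 28.1 CPM, Stfa3 at 0 to 5.20 CPM and Ccl20 at 0 to 0.285 CPM. In the expanded libraries Cstdc5 had a UMI in 29.6%, 57.9%, 49.0%, 40% and 61.4% of members, in 6.93%, 13.9%, 13.1%, 9.09% and 21.6% of resting cells and in 1.61%, 2.42%, 4.02%, 4.17% and 7.63% of endothelial marker cells. Both other cell sets were shallower than the members (median UMIs of 10348 to 14704 in these resting cells). Whether RNA of these 3 genes in members came from outside the cells was not tested.

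S100a8 is an alarmin that neutrophils also make in large amounts. Control members held 1 UMI each in 3 libraries and 0 in day 4 (at most 1.40 CPM), and expanded members had 2.77, 26.3, 219, 9.98 and 1183 CPM, so the groups did not overlap and 1 library dominated. S100a8 passed the filter on low counts through the expanded libraries alone, so its pass in the edgeR test (adjusted p = 0.0177) is given as a description. A fold against so few UMIs depends on the fit and is not given. S100a8 did not pass with members chosen at equal depth (adjusted p = 0.0746). Endothelial marker cells of the same expanded libraries had 0.854, 16.4, 380.1, 446 and 276 CPM, lower than in members at days 1 and 4 and higher than in members in both rounds of day 2. The neutrophil genes Retnlg and Csf3r were at 0 to 0.660 CPM in members, and Retnlg reached 51.4 CPM in endothelial marker cells (expanded day 4). Whether S100a8 in members came from outside the cells was not tested.

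Saa1, an acute phase protein, was at 181 and 511 CPM in the expanded libraries of day 2 round 1 and day 4 and at 9.35 CPM or less in all others (adjusted p = 0.0752). Lcn2, an iron-binding defense protein, was at 657, 332 and 1572 CPM in the 3 later expanded libraries and at 104 to 177 CPM in the control libraries tested (adjusted p = 0.121). In the interferon list, Cxcl10, a chemokine for T cells, had 16.6, 46.1, 187 and 159 CPM in control and 28.9, 8.90, 11.2, 15.0 and 24.8 CPM in expanded members (fell by 2.28, SE 0.50, adjusted p = 0.0355). Its groups overlapped, and with the block its adjusted p was 0.0590.

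Immediate early genes gave 1 call of 18 tested, against 3.55% of all genes. All 18 AP-1 and immediate early genes lay below 0, with a median of -0.41, and 1 passed, while the summed list overlapped between groups (17595 to 23801 CPM in control, 14686 to 19255 CPM in expanded libraries). Atf3, a stress transcription factor, had 2905, 3291, 2851 and 2089.5 CPM in control and 1712, 1755, 2039.9, 2253 and 1644 CPM in expanded members (fell by 0.61, SE 0.12, adjusted p = 0.0220), with overlap. Jun had 2996 to 3498 CPM in control and 2519 to 2888 CPM in expanded members without overlap (-0.31, 0.0876), and Fos was at -0.34 (0.111).

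For a stretch experiment the targets of the mechanosensitive factors YAP and TAZ are a natural list. Of 11 tested, 1 passed, downward, against 3.55% of all genes. Tead1, the DNA-binding partner of these factors, went from 71.1 ± 17.3 (SD, n = 4) to 38.9 ± 5.89 CPM (SD, n = 5). It fell by 0.85 (adjusted p = 0.0277), without overlap. At equal depth Tead1 did not pass (-0.80, adjusted p = 0.0698). The classical targets Ccn1 (-0.75, adjusted p = 0.0675) and Ccn2 (0.06, 0.973) did not pass, and Ankrd1 had 0 UMIs in members of all libraries. Of 10 EGFR ligand and receptor genes 0 passed (2 at an unadjusted p below 0.05). In the migration list 1 of 15 passed, against 3.55% of all genes. Fn1, fibronectin, fell by 1.79 (adjusted p = 0.0391) from 29.3 to 9.40 mean CPM and did not pass at equal depth (0.0655).

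Large falls were seen in matrix genes that fibroblasts make. Of 7 tested fibroblast markers 5 fell, against 1.96% of all genes, with a median of -2.66. Col1a1 had 567, 933, 431 and 699 CPM in control and 343, 140.4, 9.23, 1.25 and 30.2 CPM in expanded members (fell by 3.42, SE 0.64, adjusted p = 0.0196). Col1a2 fell by 3.15 (adjusted p = 0.0250), Col3a1 by 3.0 (0.0392), Sparc by 2.56 (0.0220) and Dcn by 2.43 (0.0451). With the block the adjusted p of Col3a1 was 0.0654 and that of Dcn 0.0744, and at equal depth Dcn had 0.0768. Summed over 8 fibroblast markers, members had 265 to 4067 CPM in control and 15.0 to 1743 CPM in expanded libraries, and 16 members (8 in each group) had 0.5% or more of their UMIs in these genes.

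The same genes were present in cells of other types. Col1a1 had a UMI in 97.7%, 63.6%, 31.8% and 82.1% of control members and in 91.9%, 71.5%, 31.7% and 79.2% of endothelial marker cells of the same libraries. In the expanded libraries it was in 60.5%, 14.9%, 21.6%, 4.00% and 12.6% of members and in 45.5%, 8.26%, 19.5%, 2.98% and 8.72% of endothelial marker cells, although members were deeper. The Col1a1 level in the 4 control libraries was 567, 933, 431 and 699 CPM in members and 5908, 2391, 1194 and 3308 CPM in endothelial marker cells. The part of RNA from other cells in the falls was not tested. Endothelial cells can make some collagen themselves. In resting keratinocytes 7 of 8 fibroblast markers fell, against 2.54% of all genes tested there, with a median of -3.27.

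**Figure D5:**
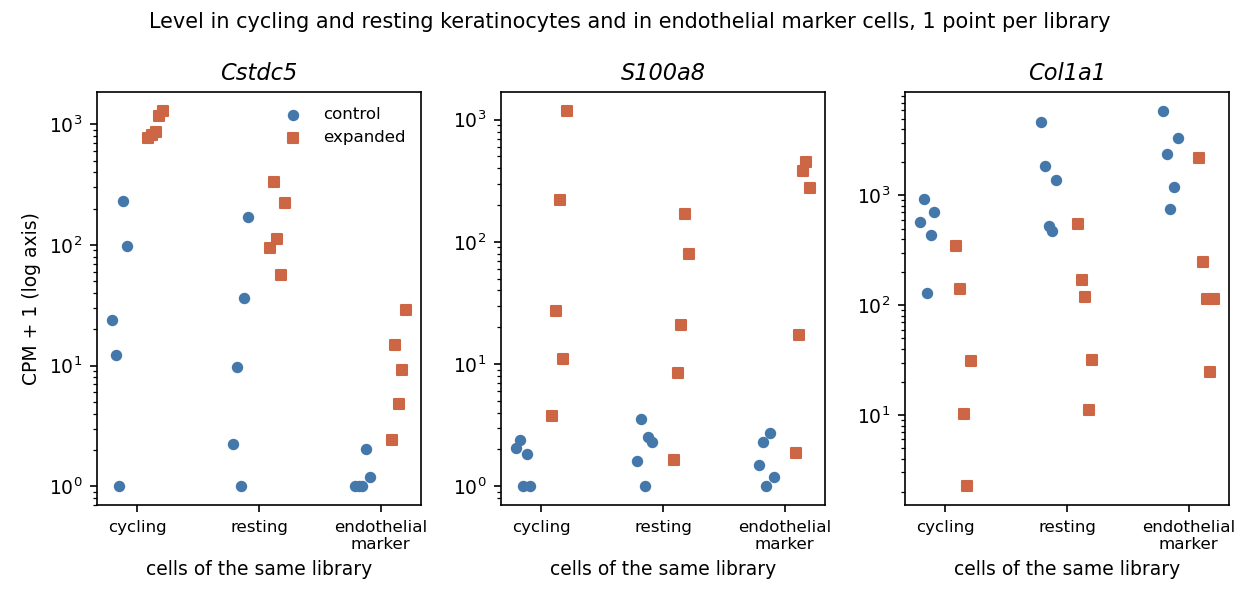
CPM plus 1 (log axis) of Cstdc5, S100a8 and Col1a1 in cycling keratinocytes, resting keratinocytes and endothelial marker cells of the same library, 5 control (circles) and 5 expanded (squares) libraries. Cstdc5 reaches 1293 CPM in cycling keratinocytes and 28.1 CPM in endothelial marker cells. S100a8 and Col1a1 reach 446 and 5908 CPM in endothelial marker cells.

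Other named falls follow. Serpinh1, the collagen chaperone, also fell in resting keratinocytes (by 1.21, edgeR adjusted p = 0.00886). The part of RNA from other cells in its fall was not tested. Serpinh1 had 89.3, 113, 138 and 169 CPM in control and 55.0, 41.7, 31.0, 26.2 and 34.5 CPM in expanded members (fell by 1.73, SE 0.23, adjusted p = 0.00508) with no overlap, and by 2.62 with members chosen at equal depth. Angptl4, a secreted inhibitor of lipoprotein lipase, did not overlap either and had 233, 265, 78.3 and 173 CPM in control and 63.0, 38.4, 57.4, 46.2 and 45.8 CPM in expanded members (fell by 1.77, SE 0.27, adjusted p = 0.00943). With members chosen at equal depth Angptl4 differed by -0.97 and did not pass (adjusted p = 0.171). F3, tissue factor, fell by 2.10 (adjusted p = 0.0220) from 151 to 33.4 mean CPM, with overlap. Creb5 fell by 1.81 (0.0109) and Fam107b by 1.87 (0.0190). At equal depth Creb5 still passed (-1.95, adjusted p = 0.0134), whereas F3 (-1.60, 0.220) and Fam107b (-1.46, 0.122) did not. Aebp1 (fell by 2.02, 0.0220) and Ndufa4l2 (fell by 1.99, 0.0418) lost their calls when cells rich in fibroblast UMIs were left out (adjusted p = 0.331 and 0.0632), and Ndufa4l2 also with the block (0.0700) and at equal depth (0.0698).

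Markers of other cell types were counted in the members. Skeletal muscle markers summed to at most 3.43 CPM in any library, with Myod1, Myf5 and Pax7 at 0. Merkel cell markers summed to at most 27.2 CPM, with Atoh1, Krt20 and Sox2 at 0. Endothelial markers summed to 8.38 to 79.9 CPM in control and 9.90 to 49.0 CPM in expanded libraries, and melanocyte markers to 6.79 to 146 and 5.57 to 121 CPM. Pericyte and smooth muscle markers summed to 0 to 75.9 and 2.50 to 95 CPM, and Schwann cell markers to 6.79 to 20.8 and 6.24 to 42.9 CPM. Leukocyte markers, with Ptprc at 0 by the rule, summed to 50.3 to 380.0 CPM in control and 22.7 to 329 CPM in expanded libraries. In the expanded day 4 library 43 of 127 members had 5 or more leukocyte UMIs. The sum there was 329 CPM, of which Cd74, the invariant chain, gave 319 CPM, and the endothelial marker cells of that library held Cd74 at 297 CPM.

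The last comparison asked whether cycling and resting keratinocytes responded differently. In resting cells 420 of 10752 genes passed (3.91%), 147 higher (1.37%) and 273 lower (2.54%). The states come from the same libraries. The difference itself, tested as an interaction in edgeR with the library as a block, passed for 0 of 10885 genes (0%), with 946 genes at an unadjusted p below 0.05 and 14 calls with DESeq2. With members chosen at equal depth the interaction gave 43 calls. The lowest adjusted p was that of H2afv, 0.121: it fell by 1.06 in cycling cells and differed by -0.25 in resting cells. Next came Haus8, Saa1, Crispld2, Hmgb1 and Prr7, each with an adjusted p of 0.203. Hmgb1, a chromatin protein, was at -0.23 in cycling cells and 0.41 in resting cells.

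Side by side, the cholesterol genes had 5 rises in each state (against 1.59% and 1.37% of all genes), with medians of 0.54 and 0.59. The list of ribosome biogenesis genes and MYC targets had 2 and 3 rises, with medians of 0.44 and 0.34. The G2M genes, few of which could be tested in resting cells (23), had 12 falls in cycling and 0 in resting cells, with medians of -0.65 and -0.03. Over all genes 1.96% fell in cycling and 2.54% in resting cells. Resting cells were chosen for 0 UMIs of the 4 cycle genes, so this contrast follows in part from the rule. Itgb4 rose by 1.01 in cycling cells and was at 0.28 in resting cells (adjusted p = 0.259), and the difference did not pass (interaction adjusted p = 0.376). Ccl20 was at 0.03 in resting cells (adjusted p = 0.992, interaction 0.461).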

How the data were processed

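The deposited matrices hold raw UMI counts per gene and cell; the submitters' processing notes name Cell Ranger 6.1.2 and the build mm10. Of 55174 barcodes in 10 mRNA libraries, 47251 passed the limits on genes, UMIs and mitochondrial share. Members were found by the rule, and their counts were summed per library. Libraries with under 20 members stayed out of tests on levels. Genes were tested with edgeR 4.0.16 in R 4.3.3 (filterByExpr, TMM, quasi-likelihood F test, day as covariate, Benjamini-Hochberg over all tested genes) and with DESeq2 1.42.0 as an alternative. Shares and list sums were compared by exact permutation over libraries (Python 3.11.15, numpy 2.4.6, scipy 1.17.1). Endothelial marker cells had at least 3 UMIs of Pecam1, Cdh5 and Cldn5 and lay outside the keratin gate. Doublets were kept; Scrublet in scanpy 1.11.5, cut at the expected rate, marked 0 to 6 members per library, which were removed as an alternative.

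The day and sequencing round in the labels pair control with expanded libraries. Deviations from the group means correlated at 0.222, 0.0481, 0.177 and 0.239 within these pairs and at -0.207 to 0.122 between other libraries. Genes named are the 12 largest rises and falls with an adjusted p below 0.05, the same direction in all pairs and a mean of at least 50 CPM in 1 group, then up to 4 genes of each list and its best known members, and the 6 lowest adjusted p of the interaction. The members and lists were chosen with earlier results of these data known. On simulated counts for 8878 genes, edgeR recovered 59.0% of log2 changes of 1 and 90.0% of changes of 2 in the expansion test, and on 10885 genes 13.0% and 82.0% in the interaction. These counts had 1 dispersion for all genes and no day or library effects, so recovery in the real data was not measured.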

Additional observations from a re-analysis of the deposited data

Results flagged for a closer look

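Within groups of 4 or 5 libraries, 6 of 54 tested sets of values held 1 library far from the rest by Dixon's test, which chance gives in about 1 of 20 groups. The control library of day 2 round 2 was lowest for the G2M list (5087 CPM) and highest for Chchd10 (142 CPM). The expanded library of day 4 was highest for S100a8 (1183 CPM) and Phyh (199 CPM). The expanded library of day 1 round 1 was highest for Col1a2 (505 CPM) and Creb5 (74.5 CPM).

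At 5000 UMIs per cell and a minimum of 3 cycle UMIs, the cycling share differed in opposite directions at days 1 and 2. Expanded minus control it was -4.50 and -5.04 percentage points in the rounds of day 1 and 4.59 and 0.979 percentage points in those of day 2. With a minimum of 5 cycle UMIs expanded skin lay below control at day 2 as well (8.23% against 10.4%, then 7 of 122 cells against 21 of 350). The difference between days was not tested.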

How the results depend on the processing

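The difference in cycling share (-0.977 percentage points) turned positive without thinning (5.06), at 2000 UMIs per cell (1.07) and over all kept cells (0.581), and ranged from -2.93 to 0.565 with 1 library left out (0.565 and 0.476 without the expanded day 1 libraries). The S phase list passed only with the keratin minimum at 1% (825 CPM). The G2M list held under all alternatives except the replicate block over pairs, where it differed by -2064 CPM with an exact permutation p of 0.125, the smallest possible. The count of changed genes (315) was 40 without a filter on low counts, 134 with members thinned, 123 with members chosen after thinning, 111 without day as covariate, and 28 to 688 with 1 library left out; the replicate block gave 353. The interaction (0 genes) gave 14 with DESeq2, 265 without a filter, 1 with thinned cells, 1 at the 1% keratin minimum, 43 with cells chosen after thinning, 4 with the replicate block and 0 to 1 with 1 library left out. Cxcl10 changed sign at the 1% keratin minimum (0.27). The block over pairs ended the calls of Col3a1, Dcn, Ndufa4l2, Ccna2, Cdkn1b, Mvd, Fasn and Cxcl10 and of no other of the 61 re-tested genes. With libraries of at least 20 members the 1% keratin minimum could not be fitted, and at least 10 members were then required. This setting, the equal-depth choice of members, the minimum of 8 members and the removal of cells rich in fibroblast UMIs were chosen after seeing the data. The cause of these changes was not tested. The control library of day 2 round 1, with 8 members, gave shares but no levels.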
